A study of Mus musculus with 2 samples.

Results

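Laminins are the cross-shaped glycoproteins that form the cell-facing sheet of basement membranes, and nidogens are link proteins of the same sheets. The 9 genes described here were taken by symbol from the 27998 genes of the count tables, and all 9 were present: the α chains Lama3, Lama4 and Lama5, the β chains Lamb1, Lamb2 and Lamb3, the γ chain Lamc1, and the nidogens Nid1 and Nid2. They were followed across endothelial subtypes, alveolar type 2 (AT2) epithelial cells, fibroblasts and smooth muscle cells of mouse lung, set by marker genes, in 1 single-cell RNA library labelled WT and 1 labelled KO. Both came from lungs of C57BL/6J mice aged 10 to 12 weeks, digested with dispase and DNase and sorted for VE-cadherin, an endothelial junction protein, and against the leukocyte protein CD45. The series title names a mouse model of hereditary hemorrhagic telangiectasia type 2, a vessel disease caused in people by loss of the BMP receptor gene ACVRL1. The labels name neither the deleted gene nor a Cre driver, nor how many animals a library pooled. With 1 library a group no test against the spread between animals was possible, and every interval given here is a 95% interval for counting error only.

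A laminin molecule joins 1 α, 1 β and 1 γ chain, so the chains a cell makes limit which laminins it can secrete. Vascular basement membranes are known to hold laminins of α4 and α5 with β1 or β2 and γ1, while epithelia also make a laminin with α3 and β3. Nidogens bind the γ1 chain and collagen IV and so connect both networks.

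In GRCm38 coordinates from GENCODE M21, the α chain genes Lama4 and Lama5 lie at chr10:38965515-39110188 (Lama4, + strand) and chr2:180176373-180225859 (Lama5, - strand). The β chain genes lie on the + strand at chr12:31265234-31329644 (Lamb1), chr9:108479736-108490530 (Lamb2) and chr1:193207699-193343878 (Lamb3). Lamc1 lies at chr1:153218922-153332786 on the - strand, and on the + strand Nid1 lies at chr13:13437551-13512269 and Nid2 at chr14:19751265-19811787. Annotated exons overlap between Lamb3 and Hsd11b1 (other strand) and 4930570N18Rik (same strand), and between Nid2 and Rtraf, Nid1 and Gm48682, and Lama3 and Gm29200 (other strand each). The sources used here do not say whether counting used strand, and how reads in these overlaps were assigned was not tested.

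The β chain genes had 3 different patterns over the cell classes: Lamb1 was mesenchymal, Lamb2 was found in every class, and Lamb3 was highest in AT2-like cells. Their upstream sequences, from the RefSeq promoter table (GRCm38.p6, 5′ to 3′, + strand), are printed so that genes of 1 family with different patterns can be set side by side. Each run starts 250 bases before a RefSeq start and ends before the first GENCODE exon found there.
Lamb1, chr12:31265043-31265233: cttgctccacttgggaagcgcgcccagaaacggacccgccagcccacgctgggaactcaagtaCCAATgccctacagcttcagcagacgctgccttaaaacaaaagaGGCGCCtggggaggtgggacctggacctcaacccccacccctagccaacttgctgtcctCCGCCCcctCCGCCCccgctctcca
Lamb2, chr9:108479612-108479735: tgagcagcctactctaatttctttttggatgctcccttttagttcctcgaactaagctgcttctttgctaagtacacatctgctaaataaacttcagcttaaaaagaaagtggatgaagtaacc
Lamb3, chr1:193301744-193301992: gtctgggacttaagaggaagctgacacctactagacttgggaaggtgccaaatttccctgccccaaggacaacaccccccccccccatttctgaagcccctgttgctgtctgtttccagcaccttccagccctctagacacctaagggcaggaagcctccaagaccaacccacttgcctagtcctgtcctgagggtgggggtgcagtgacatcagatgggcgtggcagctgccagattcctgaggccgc
Capitals mark matches, on either strand, to the GC box GGGCGG, the CCAAT box, the TATA box TATAAA, the AP-1 motif TGANTCA or GGCGCC, a GC-rich SMAD element. The Lamb1 window held 2 GC boxes, 1 CCAAT box and 1 GGCGCC, while the windows of Lamb2 and Lamb3 held none of the 5 motifs. Lamb3 had 2 entries. The other, at chr1:193301993-193302242, is not printed and also held none. Both lie inside the Lamb3 gene span given above. Of all 32851 windows of 250 bases, 32.7% held a GC box, 33.8% a CCAAT box, 12.4% a TATA box, 6.75% an AP-1 motif and 9.59% GGCGCC. Over whole windows of 250 bases, including bases not printed, GC content was 62% for Lamb1 and 43.6% for Lamb2. It was 58.8% for the printed Lamb3 entry and 61.2% for the other, against a median of 52.4% over all windows. Of the 9 members, 5 had an entry, Lama5 and Nid1 being the others.

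After filtering, 2708 of 3482 WT barcodes (25667220 UMIs, counted molecules, in all) and 1314 of 2196 KO barcodes (17864581 UMIs) remained, and 12 barcodes occurred in both tables. Endothelial-like cells numbered 1487 in WT and 480 in KO, AT2-like cells 786 and 550, fibroblast-like cells 131 and 85, smooth muscle-like cells 91 and 60, and pericyte-like cells 22 and 21. Cdh5, which encodes VE-cadherin, was at 2088 CPM (UMIs of a gene per 1000000 UMIs of its class) in WT endothelial-like cells and at 3.15 CPM in KO AT2-like cells, which were in the sorted sample although near 0 for its marker. Acvrl1 was at 1465 CPM in WT endothelial-like cells, 412 CPM in a cluster of 119 KO cells and 1 WT cell, and 1273 CPM in the other KO endothelial-like cells; whether its reads lie outside a deleted part was not tested. No WT cell of the classes used had Y-linked UMIs alone, whereas most KO cells with sex-linked UMIs did, so sex and genotype cannot be told apart except where cells are divided by sex-linked transcripts. Such a division also falls between animals, so there sex and animal cannot be told apart. Sftpc, the surfactant gene of AT2 cells, was at 3209 and 1659 CPM in WT and KO general capillary (gCap)-like cells, against 182315 and 184386 CPM in AT2-like cells.

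Lama5 was the main α chain by UMIs of capillary and AT2-like cells, and Lama4 that of smooth muscle-like and pericyte-like cells. Lama5, a chain of mature vessel and epithelial basement membranes, was at 92.4 CPM (82.9 to 103, 342 UMIs) in WT gCap-like cells and 73.9 CPM (59.3 to 91.1, 88 UMIs) in KO ones. Aerocyte (aCap)-like cells, the thin capillary cells of gas exchange, held 23.2 and 25.5 CPM in WT and KO. The WT aCap-like level lay below the WT gCap-like level with intervals apart. Arterial-like cells held 70.3 and 82.2 CPM, venous-like cells 32.5 and 40.3 CPM, AT2-like cells 46.5 and 55.9 CPM and smooth muscle-like cells 54.4 and 73.6 CPM. Ranked by WT level, neighbouring classes among these overlapped, but the WT gCap-like interval lay above those of WT smooth muscle-like and AT2-like cells. Adventitial fibroblast-like cells held 1 WT and 6 KO Lama5 UMIs. Pericyte-like cells held none, with intervals that reach 38.4 CPM in WT and 20.9 CPM in KO.

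Lama4, the chain typical of vessel walls and mesenchyme, was at 28.1 and 27.7 CPM in WT and KO gCap-like cells, and at 4.17 and 16.2 CPM in aCap-like cells on 9 and 7 UMIs. Pericyte-like cells were highest, at 469 and 503 CPM. Smooth muscle-like cells held 264 and 224 CPM, adventitial fibroblast-like cells 209.8 and 108 CPM and alveolar fibroblast-like cells 264 and 123 CPM. AT2-like cells were near 0, at 0.579 and 0.556 CPM. In WT the smooth muscle-like and both fibroblast-like levels overlapped one another and lay above the gCap-like, aCap-like, arterial-like and venous-like levels.

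Lama3, the α chain of the epithelial laminin, was highest by UMIs in AT2-like cells, at 18.4 and 20.3 CPM on 254 and 219 UMIs. In every other subtype it had at most 11 UMIs a library, too few to order those classes.

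**Figure D1:**
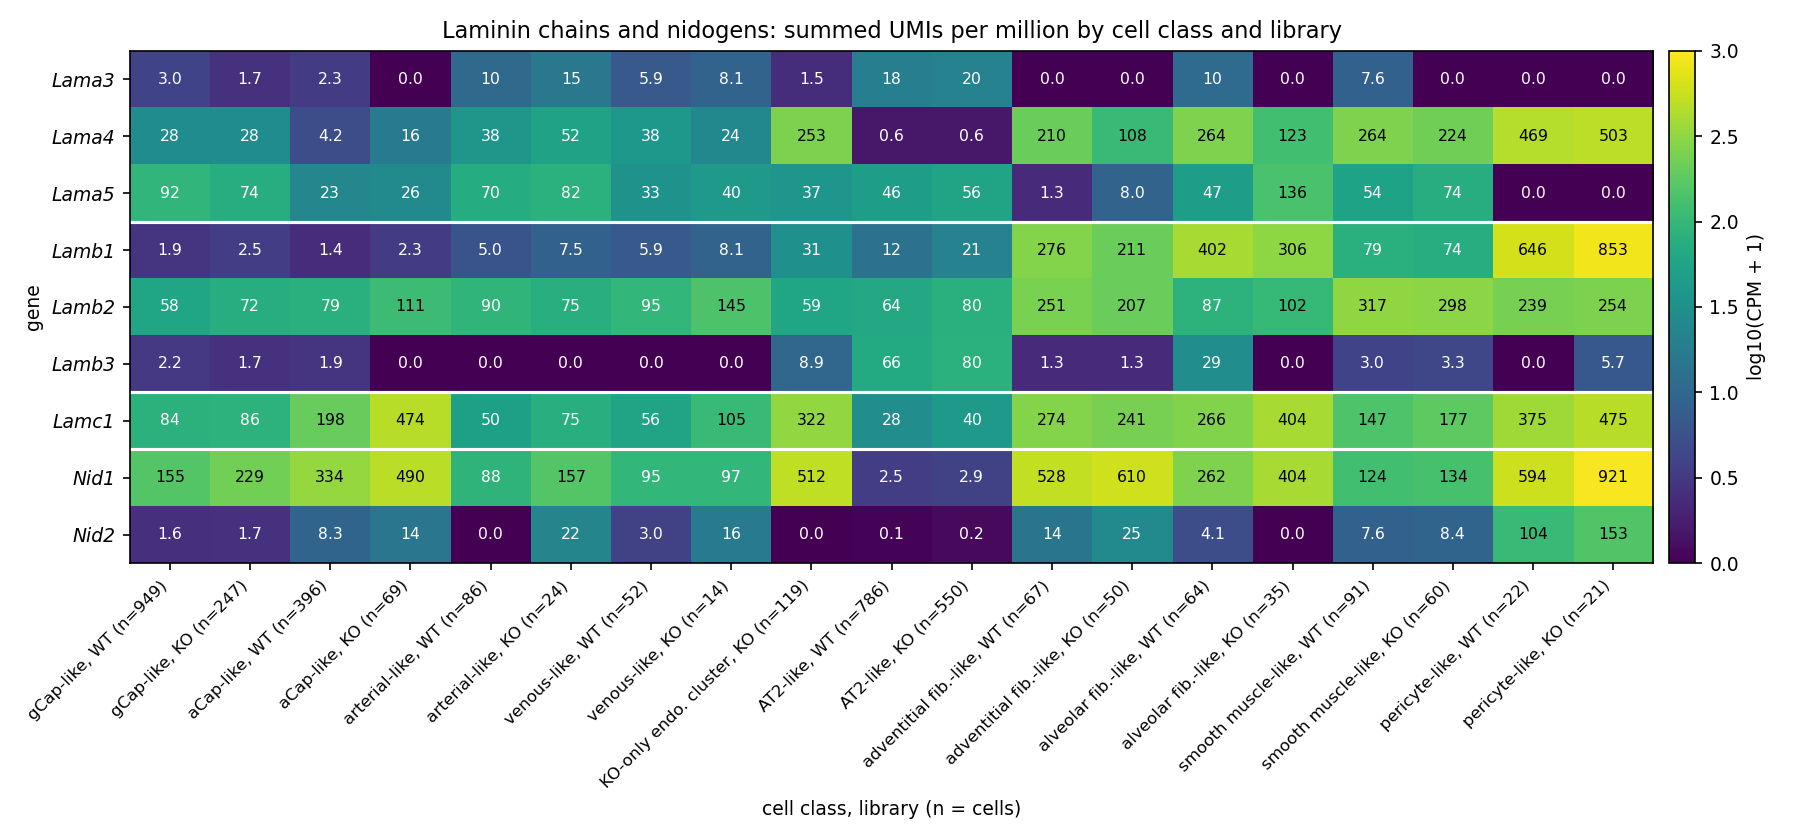
Heat map of the 9 members (rows, with α, β and γ chains and nidogens separated) by cell class and library (columns, with the number of cells); colour is log10(CPM + 1) and the printed number is the CPM of summed UMIs. Lama4, Lamb1 and Nid1 were high in fibroblast-like and pericyte-like cells, Lamb3 in AT2-like cells (66.4 CPM in WT), and Lama4 in the cluster found almost only in KO (253 CPM).

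Lamb1, a chain of mesenchymal and developing laminins, was highest in pericyte-like cells, at 646 and 853 CPM in WT and KO, followed by alveolar fibroblast-like cells at 402 and 306 CPM. Adventitial fibroblast-like cells held 276 and 211 CPM, and smooth muscle-like cells 78.5 and 73.6 CPM. Capillary endothelium was near 0: gCap-like cells held 7 WT and 3 KO Lamb1 UMIs, or 1.89 and 2.52 CPM.

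Lamb2, the β chain of mature vessel basement membranes, was present in every class. Its levels were 57.8 and 72.3 CPM in WT and KO gCap-like, 78.8 and 111 CPM in aCap-like, 90.3 and 74.7 CPM in arterial-like and 94.6 and 145 CPM in venous-like cells. Smooth muscle-like cells were highest, at 317 and 298 CPM, and the adventitial fibroblast-like and pericyte-like intervals overlapped theirs in WT. AT2-like cells, at 64.5 and 79.8 CPM, lay within the endothelial range.

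Lamb3, a partner of α3, was at 66.4 and 80.4 CPM in WT and KO AT2-like cells and under 10 CPM in every other subtype but WT alveolar fibroblast-like cells. Those held 28.9 CPM on 14 UMIs, and their Sftpc level was 37557 CPM against 1293 CPM in KO. Without the 6 WT and 1 KO cells in which Sftpc exceeded 1% of UMIs, 3 WT Lamb3 UMIs remained. After each cell was thinned to 1500 UMIs, 9.38% of 778 WT AT2-like cells had a Lamb3 UMI, against 0.112% of 891 WT gCap-like cells. The median depths before thinning were 17772.5 and 3813 UMIs.

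Lamc1 encodes γ1, the γ chain of most laminins. It was at 84.3 and 85.7 CPM in WT and KO gCap-like and 198 and 474 CPM in aCap-like cells. Pericyte-like cells held 375 and 475 CPM, adventitial fibroblast-like cells 274 and 241 CPM, alveolar fibroblast-like cells 266 and 404 CPM and smooth muscle-like cells 147 and 177 CPM. AT2-like cells were lowest, at 28.2 and 39.6 CPM. In WT, pericyte-like and both fibroblast-like levels overlapped and lay above that of aCap-like cells, which lay above smooth muscle-like and then gCap-like cells.

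Nid1 was the member with the highest level in both capillary classes, at 155 and 229 CPM in WT and KO gCap-like and 334 and 489.8 CPM in aCap-like cells. Arterial-like cells held 87.8 and 157 CPM and venous-like cells 94.6 and 96.7 CPM. Pericyte-like cells held 594 and 921 CPM and adventitial fibroblast-like cells 528 and 610.4 CPM, which overlapped in WT but not in KO. AT2-like cells were near background, at 2.46 and 2.87 CPM: at 1500 UMIs a cell, 0.386% of WT AT2-like cells had a Nid1 UMI, against 20.4% of WT gCap-like and 36.2% of WT aCap-like cells. The paralogue Nid2 was at 104 and 153 CPM in pericyte-like cells and at or below 25.3 CPM elsewhere, apart from 9 UMIs in 7 KO lymphatic-like cells.

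All 9 members together gave 426 CPM in WT gCap-like cells, 239 CPM in WT AT2-like cells and 2426 CPM in WT pericyte-like cells. When smooth muscle-like, fibroblast-like, endothelial-like and AT2-like cells were ranked for each member, 1 of the 9 members was highest in endothelium in WT and 0 were in KO. It was Lama5, at 65.2 CPM (59.2 to 71.6) in WT endothelial-like and 54.4 CPM (38.1 to 75.3) in WT smooth muscle-like cells, which overlap.

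A member was counted as different between 2 sets of cells when it differed at least 1.5-fold with intervals apart, and only if its mean reached 10 CPM. Between the WT capillary types, 2 of 5 members past that level were higher in aCap-like cells, where 11.5% of 8642 genes were higher and 13% lower. They were Lamc1, 2.35-fold (2.03 to 2.73), and Nid1, 2.15-fold (1.93 to 2.40), while 2 members were lower, Lama5 at 0.25 and Lama4 at 0.15 of the gCap-like level. In KO, where 7.82% of 8419 genes were higher and 8.43% lower, Lamc1 (5.52-fold) and Nid1 (2.14-fold) were higher and Lama5 (0.35) lower. The laminin receptor subunit Itga6 was at 21.3 CPM in WT aCap-like and 741 CPM in WT gCap-like cells, whereas Itga3, another laminin-binding subunit, was at 366 and 68.6 CPM. Within gCap-like cells, the cluster rich in Esm1 held 87.6 CPM of Lama5 in WT, against 103 and 84.2 CPM in the others.

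Shares within the α and β chain families, with the other α chains Lama1 and Lama2 included, showed the same division. Lama5 gave 73.9% of 463 α-chain UMIs in WT gCap-like cells (exact binomial interval 69.6 to 77.8%) and 75.8% of 66 in WT aCap-like cells. Lama4 gave 65.5% in WT and 62.9% in KO smooth muscle-like cells. In adventitial fibroblast-like cells Lama2, the α chain of muscle and interstitial basement membranes, gave 62.5% in WT and 75% in KO. Lamb2 gave 93.4% of β-chain UMIs in WT gCap-like cells and Lamb1 77.7% in WT alveolar fibroblast-like cells. AT2-like cells divided theirs between Lamb2 (45% in WT) and Lamb3 (46.3%). A 3′ UMI counts 1 captured transcript whatever its length, but capture may differ between genes.

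**Figure D2:**
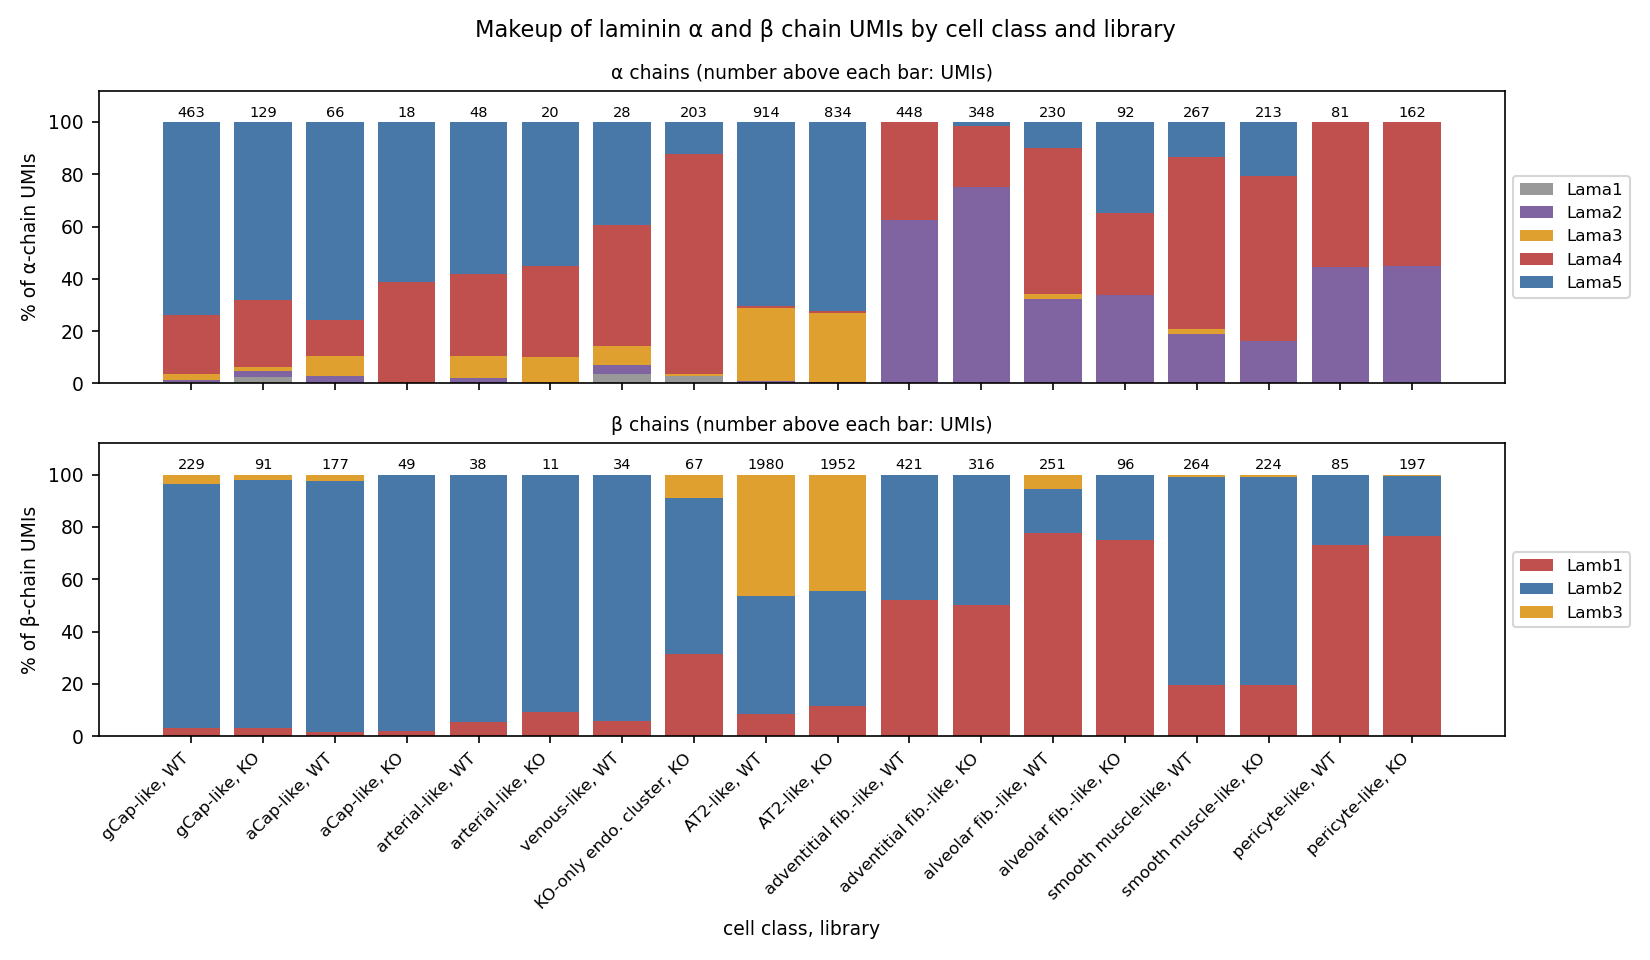
Stacked bars of the share (y axis, percent) of α-chain and β-chain UMIs that each chain gave, by cell class and library (x axis), with UMI totals. Lama5 filled most of the WT gCap-like α bar (73.9%) and Lama4 most of that of the cluster found almost only in KO (84.2%).

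The genes most like each member were found by Pearson correlation of log2(CPM + 10) over 18 combinations of class and library, among 7135 genes. This is a description, since the points share libraries and depth. Lamc1 had Nid1 among its 3 nearest genes (r = 0.88), after Sgce and Myadm (both 0.91). Lamb3 was nearest to Sec14l4 (0.98), the receptor gene Erbb3 and the epithelial GTPase gene Rab25 (both 0.96). Lama4 was nearest to Crtc3 (0.93), and Lamb1 had Arhgap24 among its 3 nearest genes (0.95). Nid1 was nearest to Tuba1a (0.94) and had Serpinh1, a collagen chaperone, in its list (0.91). Lamb2 was nearest to Axl (0.95), Nid2 to Nr2f1 (0.91) and Lama5 to Camk2d, with the lowest value (0.81).

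For KO against WT the rule was applied to classes of at least 50 cells in each library. In gCap-like cells 0 of 5 members differed, where 4.66% of 8511 genes did. Nid1 came nearest, at 155 and 229 CPM in WT and KO, a ratio of 1.47 (1.27 to 1.71), and it met the rule under 3 other settings. Ratios were 0.99 for Lama4, 1.02 for Lamc1, 1.25 for Lamb2 and 0.80 for Lama5, each with an interval that held 1. These pooled values covered 3 gCap-like clusters, compared 1 by 1 after the values had been seen. In the largest (382 WT and 89 KO cells), where 1.49% of 8546 genes were higher and 1.79% lower, Lama5 was lower in KO (103 and 50.4 CPM, ratio 0.49, 0.29 to 0.77) and Nid1 higher (158 and 237 CPM). In the Esm1-rich cluster (228 and 59 cells), where 1.73% of 8480 genes were higher and 2.1% lower, Lamc1 was lower (101.5 and 47.1 CPM, ratio 0.46, 0.24 to 0.83) and Nid1 higher (171 and 261 CPM). That Lamc1 call rested on 95 and 13 UMIs, and Esm1 itself was at 1169 and 601 CPM in this cluster. Summed erythroid markers were at 838 and 65.5 CPM in WT and KO gCap-like cells, and their part in these results was not tested. In the other cluster no member met the rule, where 3.63% of 8351 genes did, and Nid1 was at 142 and 203 CPM. Lama5 in the Esm1-rich cluster (1.16) and Lamc1 in the largest (1.23) had ratios above 1, and differences between clusters were not tested.

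Of 18 genes of collagen IV and basement membrane partners, 9 reached the level in gCap-like cells: Sparc, a collagen-binding protein, was higher (976 and 1909 CPM), Tinagl1, a laminin-binding matrix protein, was lower (159 and 96.6 CPM), and 7 did not meet the rule. None of 11 receptor genes at this level differed.

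In aCap-like cells 1 of 6 members was higher in KO and 0 were lower, where 1.9% of 8326 genes were higher and 1.86% lower. Lamc1 was at 198 CPM (180 to 218, 428 UMIs in 396 cells) in WT and 474 CPM (411 to 543, 204 UMIs in 69 cells) in KO, a 2.39-fold difference (2.01 to 2.83). The 5 richest cells held 7.01% of its UMIs in WT and 29.9% in KO. Its level was 380.4 CPM in the 47 KO cells with Y-linked UMIs and no Xist, 1419 CPM in the 8 with Xist alone, and 195 CPM in the 382 WT cells with Xist alone. The 8 Xist-only KO cells were under the 20-cell minimum for comparing such cells with WT, so the part of sex in this result was not tested. At 1500 UMIs a cell, 24.5% of WT and 45.6% of KO aCap-like cells had a Lamc1 UMI. Nid1 had a ratio of 1.47 (1.25 to 1.71) and Lamb2 of 1.41 (1.00 to 1.96), neither meeting the rule. Lama4, with 9 and 7 UMIs, had a ratio of 3.90 (1.23 to 11.8) but overlapping levels. Summed lymphatic markers in aCap-like cells were at 282 and 1149 CPM in WT and KO, against 2899 and 3399 CPM in arterial-like cells. AT2 markers in aCap-like cells were at 3794 and 1857 CPM, and the part of both lists in these results was not tested.

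Partner genes were higher in KO aCap-like cells as well: 4 of 8 at the level were higher and 0 lower. These were Tinagl1 (35.7 and 102.1 CPM in WT and KO), Sparc (371 and 801 CPM) and the main collagen IV chains Col4a1 (1859.9 and 3605 CPM) and Col4a2 (1153 and 2049.7 CPM). The list's median log2 ratio was 0.89 and that of the 6 members 0.65, against -0.03 over all genes. Of 11 receptor genes at the level 2 were higher, Itga6 (21.3 and 65 CPM) and Mcam, a receptor of α4 laminin (197 and 395 CPM). Lamc3, the 1 other laminin chain at the level, was at 31.5 and 13.9 CPM and did not meet the rule.

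**Figure D3:**
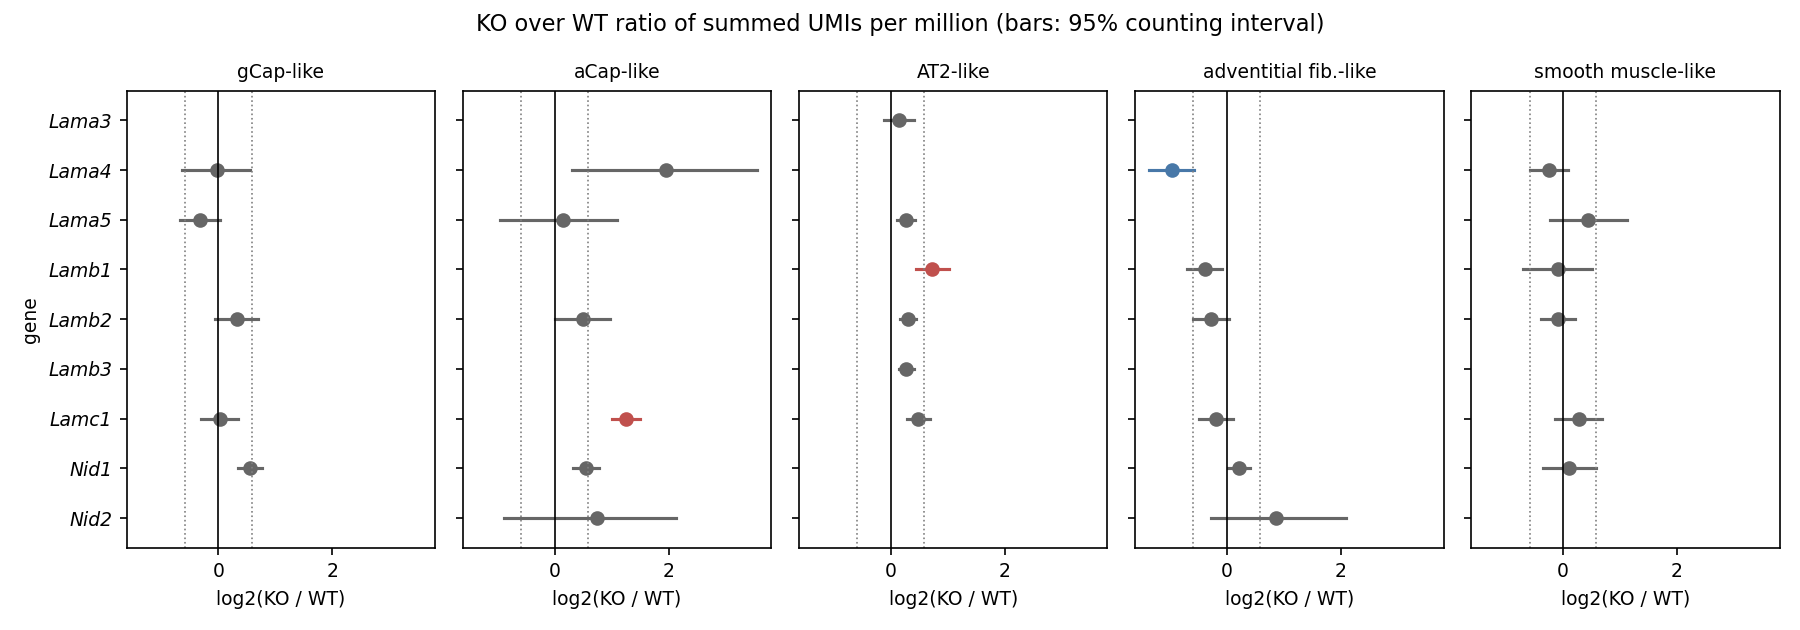
KO over WT log2 ratio of CPM (x axis) for each member (y axis) in 5 cell classes, with bars for 95% counting intervals and dotted lines at 1.5-fold; members with a mean of at least 10 CPM are drawn. Lamc1 in aCap-like (2.39-fold) and Lamb1 in AT2-like cells (1.66-fold) met the rule as higher in KO and Lama4 in adventitial fibroblast-like cells (0.51) as lower.

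In AT2-like cells 1 of 6 members was higher in KO and 0 were lower, where 1.81% of 7338 genes were higher and 2.29% lower. Lamb1 was at 12.4 and 20.7 CPM in WT and KO on 172 and 223 UMIs, a 1.66-fold difference (1.35 to 2.04). In cells with Xist alone 737 WT cells held 12.8 CPM and 83 KO cells 14.3 CPM, which did not meet the rule, and the 385 KO cells with Y-linked UMIs alone held 21.3 CPM. Among these Xist-only cells, where 6.29% of 7298 genes were higher and 7.81% lower, Lamb3 was the 1 member of 6 that met the rule (66.1 and 128 CPM in WT and KO, 1.94-fold, 1.67 to 2.25), and in KO cells with Y-linked UMIs alone it was at 70 CPM. Summed club cell markers were at 398 and 4782 CPM and erythroid markers at 46 and 561 CPM in WT and KO AT2-like cells, and their part in these results was not tested. Over all AT2-like cells the ratios of the other 5 members ran from 1.10 (Lama3) to 1.40 (Lamc1). Of 9 partner genes 3 were higher: Sparc (305 and 607 CPM), Tinagl1 (98.6 and 164 CPM) and Col4a3, a chain of the alveolar collagen IV network (31.8 and 49.6 CPM). None of 9 receptor genes differed.

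In adventitial fibroblast-like cells 1 of 6 members was lower in KO and 0 were higher, where 2.73% of 8243 genes were higher and 3.75% lower. Lama4 was at 209.8 CPM (179 to 244, 67 cells) in WT and 108 CPM (85.5 to 134, 50 cells) in KO, a ratio of 0.51 (0.39 to 0.67). The 5 richest cells held 33.5% of its UMIs in WT and 40.7% in KO, and with every cell weighted equally the difference no longer met the rule. In KO it was at 95.7 CPM in 14 cells with Xist alone and 113 CPM in 28 with Y-linked UMIs alone, against 213 CPM in WT cells with Xist alone. The 14 cells were under the 20-cell minimum for comparing such cells with WT, so the part of sex was not tested. Summed mesothelial markers were at 0 and 306 CPM and erythroid markers at 64.1 and 2344 CPM in WT and KO. The arterial marker list, which includes Mgp, Fbln5 and Cxcl12, summed to 12074 and 28109 CPM. Arterial-like cells themselves held 11502 and 10697 CPM of that list. Endothelial markers were at 491 and 287 CPM in the adventitial fibroblast-like cells. The part of these markers in the Lama4 result was not tested. Of 17 partner genes 3 were higher, Col4a1 (603 and 1515 CPM), Col4a2 (274 and 658 CPM) and Smoc2, a matricellular protein (197 and 389.6 CPM), and of 7 receptor genes Sdc4, a syndecan, was higher (146 and 257 CPM).

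In smooth muscle-like cells 0 of 6 members differed, where 5.69% of 8415 genes did, and ratios ran from 0.85 (Lama4, 0.67 to 1.07) to 1.35 (Lama5, 0.85 to 2.17). Of 15 partner genes 5 were higher and 1 lower, among them Col4a1 (888 and 1634 CPM in WT and KO), Col4a2 (459 and 880.4 CPM) and the perlecan gene Hspg2 (168 and 286 CPM), with the fibulin gene Fbln1 lower (36.2 and 8.37 CPM). Of 11 receptor genes Sdc4 (190.3 and 516 CPM) and the β1 integrin gene Itgb1 (884 and 1347 CPM) were higher. The other laminin chains had 2 genes at the level here and 2 in adventitial fibroblast-like cells, and none differed.

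Classes with fewer cells are described without the 50-cell minimum. In alveolar fibroblast-like cells (64 WT, 35 KO), where 4.25% of 8644 genes were higher and 4.43% lower, 3 of 7 members were higher in KO (Lama5, Lamc1 and Nid1) and 2 lower (Lama4, and Lamb3 with 14 UMIs against 0). Without the Sftpc-rich cells, where 3.32% of 8530 genes were higher and 4.36% lower, Lama5 was higher (51.8 and 137 CPM) and Lama4 (329 and 124 CPM) and Lamb1 (495 and 308 CPM) were lower. Lamc1 and Nid1, higher with those cells included (1.52 and 1.54-fold), had ratios of 1.25 and 1.26 without them. The 5 richest KO cells held 53.1% of the Lama5 UMIs. Summed smooth muscle markers were at 369 and 1251 CPM in WT and KO alveolar fibroblast-like cells, and their part was not tested. In pericyte-like cells, where 2.3% of 8574 genes were higher and 1.96% lower, 1 of 6 members was higher, Nid1 (594 and 921 CPM). Summed smooth muscle markers were at 916 and 5398 CPM there, with Tagln at 104 and 2566 CPM and Acta2 at 41.7 and 1803 CPM, and endothelial markers at 1562 and 260 CPM; their part in the Nid1 result was not tested. In arterial-like and venous-like cells no member met the rule, where 2.31% of 8358 genes and 2.41% of 8102 genes did.

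The widest differences lay in 1 endothelial cluster, of 119 KO cells and 1 WT cell, which was not used for KO against WT. The members and the partner and receptor genes had been left out of the clustering. All 10 endothelial markers were detected in it. Cdh5 (2364 against 2084 CPM in the other KO endothelial-like cells), Pecam1 (2316 against 1477 CPM), Esam and Emcn were at or above the level outside it, and the other 6 were below it, among them Tek (202 against 672 CPM), Ramp2 (1964 against 3719 CPM) and Egfl7 (1149 against 2147 CPM). Of the 7 tip cell markers, Angpt2, Apln, Esm1, Pgf, Cxcr4 and Igfbp3 were above the level outside it, and Kcne3 had 0 UMIs against 6. Angpt2 and Apln were at 301 and 1375 CPM against 26.6 and 158 CPM, and Esm1 at 272 against 137 CPM. Esm1 was at 253 CPM in WT endothelial-like cells, and Apln was also in the aCap marker list. The smooth muscle markers summed to 247 CPM, against 52.1 CPM in KO gCap-like and 32172 CPM in KO smooth muscle-like cells. Every marker of that list was above its level outside the cluster. Among them were Tagln (140.3 against 7.17 CPM), Acta2 (48.7 against 25.1 CPM) and Des (28.1 against 11.8 CPM). The pericyte markers summed to 56.1 CPM, against 6998 CPM in KO pericyte-like cells. All but Trpc6, which had 0 UMIs, were above their level outside the cluster. These were Higd1b (20.7 against 7.69 CPM), Kcnj8 (17.7 against 4.61 CPM) and Cox4i2 (10.3 against 8.2 CPM), with Pdgfrb and Notch3 on 2 UMIs each and Cspg4 on 1 UMI. Summed lymphatic markers were at 4650 CPM, against 1723 CPM in KO gCap-like, 1149 CPM in KO aCap-like and 3399 CPM in KO arterial-like cells. Of the 6 genes of that list, 4 were detected in the cluster and 2 in KO arterial-like cells. The list includes Lyve1, which was also among the top 10 genes by fold of endothelial clusters that had Esm1 or Vwf in their top 10. The part of lymphatic, smooth muscle or pericyte RNA in the results for this cluster was not tested.

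Against the other 361 KO endothelial-like cells, 4 of 6 members were higher in the cluster and 0 were lower, where 7.43% of 8403 genes were higher and 8.26% lower. Lama4 was at 253 CPM (216 to 293, 171 UMIs) against 33.3 CPM (65 UMIs), 7.58-fold higher (5.67 to 10.2). Its interval overlapped that of KO smooth muscle-like cells, at 224 CPM. The Lama4 ratio was smaller in cells with Y-linked UMIs alone and in cells with Xist alone, given below. The mix of these differed between the cluster and the other KO cells. At 1500 UMIs a cell, 33.1% of the cluster's cells had a Lama4 UMI, against 3.83% of KO gCap-like cells and 0 of 533 KO AT2-like cells, for which the exact binomial interval reaches 0.69%. Median depths were 5547, 4892 and 19979 UMIs, and the cluster's 5 richest cells held 26.3% of its Lama4 UMIs.

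Lamb1 was at 31 CPM on 21 UMIs in the cluster and 5.64 CPM on 11 UMIs outside it, 5.5-fold higher (2.54 to 12.6). The 5 richest cells held 71.4% of those UMIs, and without the 5 richest cells of each side the difference did not meet the rule. Lamc1 was at 322 against 173 CPM (1.86-fold, 1.56 to 2.21), a call lost under the stricter cell filter of 1000 genes and 5% mitochondrial UMIs (log2 ratio 0.46), and Nid1 at 512 against 276 CPM (1.86-fold, 1.62 to 2.13). Lama5 and Lamb2 were not higher: Lama5 was at 36.9 against 58.9 CPM (0.63, 0.39 to 0.97) and Lamb2 at 59.1 against 84 CPM (0.70, 0.48 to 1.00), and neither met the rule. Lama4 gave 84.2% of the cluster's α-chain UMIs (78.5 to 89%), whereas in KO gCap-like cells Lama4 gave 25.6% and Lama5 68.2%.

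Against all WT endothelial-like cells, where 9.02% of 8517 genes were higher and 12.2% lower, Lama4 was 11.6-fold, Lamb1 12.8-fold, Lamc1 2.72-fold and Nid1 2.48-fold higher, and Lama5 was lower, at 0.57 of the WT level. Against KO gCap-like cells, where 7.77% of 8328 genes were higher and 7.8% lower, the same 4 members were higher, Lama4 by 9.11-fold (6.25 to 13.7), and Lama5 was lower (0.50, 0.31 to 0.79). The KO endothelial-like cells outside the cluster, compared with WT, had 1 of 5 members higher, Lama4 at 21.8 and 33.3 CPM (1.53-fold), where 2.27% of 8629 genes were higher and 3.34% lower. Of its KO UMIs, 33 came from gCap-like cells and 7 each from aCap-like and arterial-like cells. The rest came from 14 venous-like and 7 lymphatic-like cells. In gCap-like cells alone Lama4 was at 28.1 and 27.7 CPM in WT and KO, and the part of class makeup was not tested. These comparisons share their groups of cells.

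Dividing the KO cells by sex-linked transcripts, and so also by animal, changed part of this. The cluster held 59 cells with Xist alone and 45 with Y-linked UMIs alone, and the other KO endothelial-like cells 17 and 219. With Y-linked UMIs alone, where 6.83% of 8363 genes were higher and 6.47% lower, 3 of 5 members were higher in the cluster: Lama4 (123 against 27.4 CPM, 4.49-fold), Lamc1 (295 against 163 CPM) and Nid1 (619.6 against 263 CPM). With Xist alone, where 3.15% of 8309 genes were higher and 4.49% lower, Lama4 was higher (344 against 134 CPM, 2.57-fold), while Lamc1 (349.7 against 624 CPM) and Nid2 (0 against 6 UMIs) were lower. Nid1 was at 417 CPM in the cluster and 571 CPM outside it (0.73, 0.54 to 0.997), the opposite direction to Y-only cells, and did not meet the rule. Of the 70 Lamc1 UMIs in Xist-only cells outside the cluster, 59 came from 8 aCap-like cells. Within the cluster, Lama4 was lower in Y-only than in Xist-only cells (123 and 344 CPM, ratio 0.36, 0.23 to 0.54), as 1 of 6 members, where 1.16% of 8030 genes were higher and 1.08% lower. Outside it, 4 of 6 members were lower in Y-only than in Xist-only cells (Lama4, Lamc1, Nid1 and Nid2), where 5.09% of 8513 genes were higher and 6.99% lower, but aCap-like cells were 8 of 17 Xist-only and 47 of 219 Y-only cells.

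**Figure D4:**
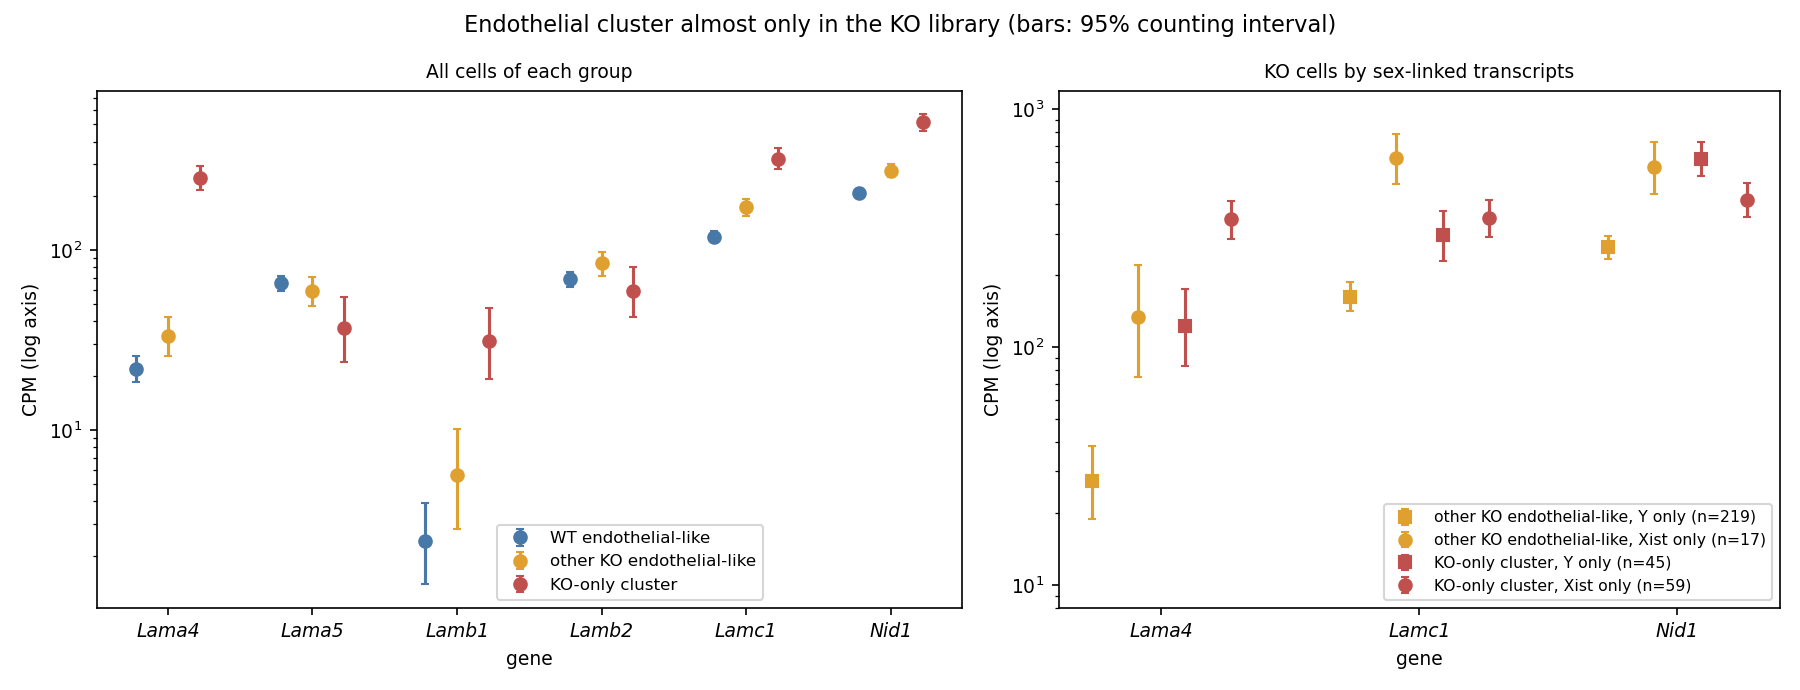
Left, CPM (log axis) of 6 members in WT endothelial-like cells, the other KO endothelial-like cells and the cluster found almost only in KO; right, 3 members in KO cells divided by sex-linked transcripts. Bars are 95% Poisson intervals. Lama4 was highest in the cluster (253 CPM), and within it in cells with Xist alone (344 CPM).

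Partner genes differed in the cluster as well: 5 of 9 at the level were higher than in the other KO endothelial-like cells and 1 was lower, with a median log2 ratio of 1.22 against -0.06 over all genes. Hspg2 was at 289 against 13.8 CPM (20.9-fold), Tinagl1 at 802 against 136 CPM and Col4a1 at 7189 against 1994 CPM, while Fbln2 was lower, at 1 UMI against 81. Hspg2 is also among the top 10 genes that define the cluster by fold. Of 10 receptor genes 2 were higher and 3 lower. Sdc4 (57.6 against 25.1 CPM) and the α4 laminin receptor Mcam (601 against 366 CPM) were higher, and the collagen receptor subunit Itga2 (7.38 against 40 CPM) and Bcam, a receptor of α5 laminin (151 against 235 CPM), were among those lower.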

How the data were processed

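The authors deposited raw UMI counts, made with Cell Ranger 3.0.1 against mm10 according to the submitters' processing notes. Barcodes with 500 genes or more and no more than 10% mitochondrial UMIs passed (2745 WT, 1326 KO), and Scrublet removed 37 and 12 of them as doublets. Leiden clustering (scanpy 1.11.5) drew on up to 2000 variable genes, 30 components, 20 neighbors and resolution 1, without the members, the listed genes or genes that differed between libraries within a class. Clusters were named from 3 or more markers by a rule settled after clusters had been seen, so classes may differ from the study's; 170 WT and 112 KO cells stayed unnamed. CPM came from UMIs summed over each class, with Poisson intervals (exact) for levels and conditional binomial ones for ratios (scipy 1.17.1). All members are named, plus up to 4 called genes per list and class by size of ratio and 3 correlated genes per member. The method was tested on simulated data. Members and lists were chosen with earlier results of these data known.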

Additional observations from a re-analysis of the deposited data

Results flagged for a closer look

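Lamc1 and Nid1 went in opposite directions when the cluster found almost only in KO was compared with the other KO endothelial-like cells in cells of 1 kind of sex-linked transcript. The log2 ratio of Lamc1 was 0.86 in cells with Y-linked UMIs alone (72 and 202 UMIs) and -0.84 in cells with Xist alone (124 and 70 UMIs), and that of Nid1 1.24 (151 and 326 UMIs) and -0.45 (148 and 64 UMIs). The Xist-only cells outside the cluster numbered 17, and 8 of them were aCap-like. For KO over WT, Lama4 had a log2 ratio of 1.96 in aCap-like cells and -0.96 in adventitial fibroblast-like cells, and Lamb1 0.73 in AT2-like and -0.39 in adventitial fibroblast-like cells. The 1.96 rested on 9 and 7 UMIs with overlapping levels and did not meet the rule. In each pair at least 1 value met the rule and the ratio intervals lay on opposite sides of 1. None of these differences was tested.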

How the results depend on the processing

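Each choice of filter, clustering, weighting and calling rule was varied alone. Called ratios kept their sign, except that in Xist-only cells (17 outside the cluster) Lamc1 and Nid1 in the KO cluster had log2 ratios of -0.84 and -0.45. Of the values for single members, 395 moved little and 25 moved; of the counts, 78 and 12. The gCap-like count became 1 with at least 200 genes, 1 with at least 1000 genes and 1 with a mean of per-cell CPM, each time Nid1; in its clusters taken alone it was 2, 0 and 2. The aCap-like count became 2 with at least 1000 genes and 3 after thinning. The AT2-like count became 2 with at least 1000 genes and 0 at 2-fold. The adventitial fibroblast-like count became 0 with per-cell CPM and 0 at 2-fold, and that of the KO cluster 2 at 2-fold. Lamb1 in AT2-like cells had a log2 ratio of 0.73, 0.17 in Xist-only cells, where Lamb3 met the rule in its place, and 1.55 after thinning. Lama4 in adventitial fibroblast-like cells had -0.96, and -0.55 with per-cell CPM. In the KO cluster Lama4 had 2.92, 2.17 in Y-only cells and a smaller value, still called, in Xist-only cells. Lamb1 there had 2.46, 3.45 at resolution 0.6, and lost its call after thinning, without the 5 richest cells and in Y-only cells (1.35). Lamc1 there lost its call with at least 1000 genes (0.46). The alternatives without Sftpc-rich cells, in Y-only cells and in single gCap-like clusters were chosen after seeing the data. Smooth muscle-like values could not be had with at least 1000 genes or at resolution 0.6, adventitial fibroblast-like values with at least 1000 genes or after thinning, and Xist-only KO against WT outside AT2-like cells. No paired analysis was possible because each group is 1 library.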
